A study of Homo sapiens with 2 samples.

Results

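The RAS family GTPases HRAS, NRAS, RRAS, RRAS2 and MRAS were taken by gene symbol from the annotation of the deposited table. All 5 were found among its 36027 genes. The cells were SK-N-BE(2)-C, an established human neuroblastoma line, carrying a doxycycline-inducible gene for HRASV12 (SK-N-BE(2)-C-pIND-HRASV12). Of the 2 libraries, the induced one held 666 cells treated with doxycycline (100 ng/ml, 13 days). The control library held 956 cells left without doxycycline. Both libraries were 10x Genomics Chromium 3' libraries and both came from cells that hold the inducible gene, so an effect of doxycycline itself and leak of the transgene without doxycycline cannot be told apart from the comparison.

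RAS proteins are small GTPases that switch between a GTP-bound active and a GDP-bound inactive state. Exchange factors such as SOS1 load them with GTP, and GTPase-activating proteins such as NF1 switch them off. Active HRAS and NRAS bind RAF kinases, which start the MEK and ERK cascade, as well as phosphoinositide 3-kinases and exchange factors of RAL. The related RRAS is best known for integrin activity, cell adhesion and blood vessel stability, RRAS2 (also called TC21) for signalling through phosphoinositide 3-kinase, and MRAS for forming a phosphatase complex with SHOC2 and PP1 that activates RAF. In neuroblastoma, mutations that raise RAS and MAPK signalling are known, above all in relapsed tumours.

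Whether reads of the paralogs can be told apart was looked at in GENCODE release 29 transcripts (GRCh38). In these, 0 words of 31 bases were shared between any 2 members, and 0 of the 470 words in the last 500 bases of each member's transcript occurred in a transcript of another gene. Over the whole transcript, 334 of 1486 words of RRAS2 (22.5%) occurred in another gene, such as SCP2. For the other members this share was at most 1.44%. Each member was taken as 1 chosen transcript. Gene-level 3' counts do not tell native from transgene transcripts of HRAS. Whether the transgene carries the native 3' end, and so is counted as HRAS, was not named in these sources. The submitters' annotation was not named either, and the files' ID of each member carries another version number than in release 29.

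HRAS was the most abundant member and RRAS showed the widest relative difference among the members above the floor of 10 CPM (counts scaled to a common library total). HRAS stood at 161 CPM in induced cells, against 109 CPM in control cells (12911 and 10433 counts), a ratio of 1.47 (exact 95% interval 1.43 to 1.51). RRAS stood at 21.8 CPM in induced cells and 10.7 CPM in control cells, a ratio of 2.03 (1.88 to 2.20, from 1755 and 1024 counts). NRAS stood at 56.1 CPM in induced and 45.9 CPM in control cells, a ratio of 1.22 (1.17 to 1.27, from 4505 and 4380 counts). Each group was 1 library, so no value has a replicate and nothing was tested, and intervals cover counting error only. Because 3' counting takes about 1 count per molecule whatever the transcript's length, the levels were not divided by length.

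RRAS2 and MRAS were near the limit of detection, under the 10 CPM floor in both libraries. RRAS2 had 155 counts in induced and 92 in control cells, which is 1.93 against 0.965 CPM (ratio 2.00, interval 1.53 to 2.62). MRAS had 74 counts in induced and 132 in control cells, or 0.921 against 1.38 CPM (ratio 0.665, 0.493 to 0.891). The direction of MRAS was not stable: on the log2 scale it was -0.31 in all cells and 0.17 in the 562 induced and 766 control cells deep enough to be thinned to 53000 counts. RRAS2 was not stable either: its log2 ratio, 0.58 in all cells, was below 0 in 5 of 18 other settings, such as -0.14 in G2/M cells and -0.15 without the cluster led by TM4SF1 described later. Summed over the 5 members, the family stood at 241 CPM in induced and 168 CPM in control cells. HRAS made up 66.6% of that sum in induced and 65.0% in control cells, NRAS 23.2% against 27.3%, and RRAS 9.05% against 6.38%.

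**Figure D1:**
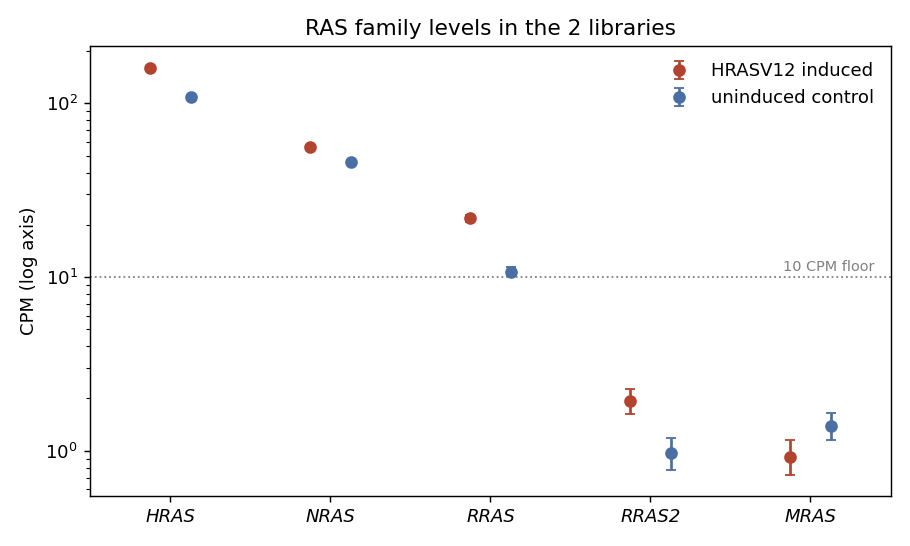
Level of each RAS family member in the induced (left, red) and control (right, blue) library, in CPM on a log axis, with exact 95% Poisson intervals. HRAS, NRAS and RRAS lie above the dotted floor of 10 CPM and are higher in the induced library, while RRAS2 and MRAS lie under it.

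Of the 9017 genes that reached 10 CPM in 1 or both libraries, 10.3% passed 1.5-fold upward in induced cells on the log2(CPM + 1) scale, and 7.73% passed it downward. Of the 3 members above the floor, 1 passed 1.5-fold upward, namely RRAS with a log2 ratio of 0.96, and 0 passed it downward. HRAS had a log2 ratio of 0.55, just inside the 1.5-fold limit of 0.58, and NRAS had 0.28, against a median of -0.04 over all measured genes. Ranked among the 9017 genes by log2 ratio, RRAS was at the 95.7th percentile, HRAS at the 88.6th and NRAS at the 76.2nd. HRAS passed 1.5-fold with TMM scaling (log2 ratio 0.66) and with DESeq2 size factors (0.71), which move the median of all genes to 0.08 and 0.13, and did not with library totals taken free of ribosomal protein and mitochondrial genes (0.46, median -0.14). Over all genes, the 930 higher and 697 lower genes became 1306 and 461 with TMM scaling, 1505 and 376 with DESeq2 size factors and 842 and 1235 with those totals.

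HRAS counts spread over a wider range in induced than in control cells. With each cell thinned at random to 53000 counts, which kept 562 induced and 766 control cells, HRAS had a median of 7 counts (5th to 95th percentile 2 to 18, highest 60) in induced cells and 5 counts (1 to 11, highest 16) in control cells. The variance was 4.35 times the mean in induced and 1.60 times the mean in control cells, where counting error alone gives about 1. In 40 induced cells, 7.12% of them (Clopper-Pearson interval 5.13 to 9.57), HRAS exceeded the highest control count, and these cells held 19.8% of the induced HRAS counts. The mean over all thinned cells was 8.67 counts in induced and 5.66 in control cells, and the 25th percentile was 5 counts in induced and 3 in control cells.

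Few induced cells exceeded the highest control count of the other members, 3 cells for NRAS and 1 for RRAS. NRAS had a median of 3 counts (highest 14) in induced and 2 counts (highest 10) in control cells, and its variance was 1.51 times the mean in induced and 1.18 times in control cells. At least 1 NRAS count was found in 91.3% of induced cells (88.6 to 93.5) and 90.2% of control cells (87.9 to 92.2), shares whose intervals overlap. RRAS was found in 54.1% of induced cells (49.9 to 58.3) and 38.8% of control cells (35.3 to 42.3), and without thinning in 65.2% and 55.9%. RRAS2 was found in 6.41% of induced cells (4.53 to 8.76) and 4.96% of control cells (3.53 to 6.75), and MRAS in 5.34% (3.63 to 7.53) and 5.09% (3.65 to 6.89). These intervals overlap too, but they cover cells of 1 library each, so a difference between the libraries was not tested. The ratios of summed counts given above for NRAS, RRAS2 and MRAS have intervals that leave out 1. All cells came from 1 line, so there was no cell type that lacks these genes to set the level of free RNA, and shares as low as those of RRAS2 and MRAS may be at that level.

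**Figure D2:**
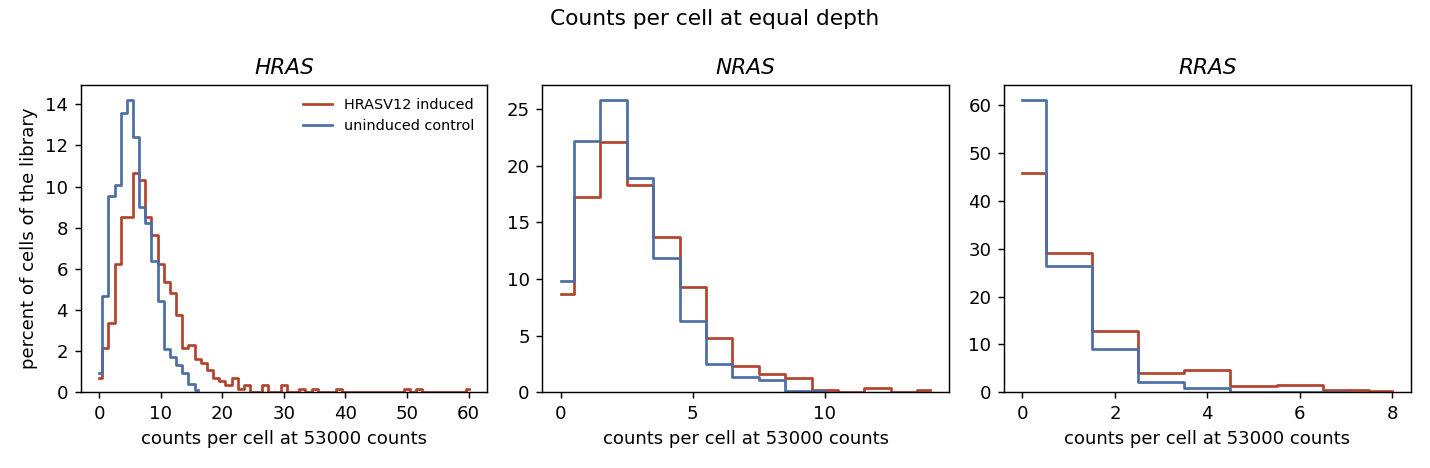
Percent of cells of each library (y axis) by the number of HRAS, NRAS or RRAS counts in the cell (x axis) after thinning to 53000 counts, for 562 induced (red) and 766 control (blue) cells. The HRAS curve of induced cells runs on to 60 counts, past the control maximum of 16, and fewer induced than control cells have 0 RRAS counts.

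From cell to cell the correlations between the paralogs were weak at this depth. Within induced cells the Pearson correlation of log2(count + 1) was 0.15 for HRAS with NRAS, 0.11 for HRAS with RRAS, -0.04 for NRAS with RRAS and 0.17 for RRAS with RRAS2, over 562 cells. Within control cells the same pairs gave 0.06, 0.01, 0.06 and -0.01 over 766 cells. All 4 values share library and sampling noise, and correlations of this size in sparse counts are no finding. RRAS and RRAS2 were detected together in 5.16% of induced cells, where the product of their single shares gave 3.47%, and in 1.57% of control cells, where it gave 1.92%. RRAS2 and MRAS were detected together in 6 induced cells (1.07%, product 0.342%) and in 0 control cells. Of the induced cells 47.0% held counts of 3 members and 41.3% of 2, and of the control cells 36.8% held 3 and 52.9% held 2. Counts of all 5 members were found in 5 induced cells and in 0 of 766 control cells.

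Cells with more HRAS counts were also compared for the other members, in pooled counts at equal depth. NRAS stood at 62.0 CPM (57.1 to 67.1) in the 187 induced cells with 10 or more HRAS counts and at 42.3 CPM (36.0 to 49.5) in the 70 with 0 to 3. In control cells the same bins gave 51.9 CPM (45.4 to 59.0, 84 cells) and 41.0 CPM (37.1 to 45.1, 193 cells). The bins between were not in order in either library. For 4 to 6 and 7 to 9 HRAS counts they stood at 56.8 and 52.8 CPM in induced and 50.5 and 41.4 CPM in control cells. With all cells unthinned and parted by the control quartiles of HRAS CPM, NRAS in control cells lay between 44.8 and 47.3 CPM in each part. In induced cells it was 44.4, 53.3, 54.7 and 59.0 CPM from the lowest to the highest part. RRAS stood at 22.0 CPM (19.2 to 25.1) in induced cells with 10 or more HRAS counts and 17.3 CPM (13.3 to 22.0) in those with 0 to 3. The same control bins gave 11.7 CPM (8.72 to 15.3) and 10.5 CPM (8.57 to 12.6). The induced bins were not in order here either, at 15.1 CPM for 4 to 6 and 23.6 CPM for 7 to 9 HRAS counts. In the bin of 0 to 3 HRAS counts RRAS was thus higher in induced than in control cells. The bins were not matched for cluster, and whether the RRAS level depends on HRAS was not tested. The intervals are of pooled counts and leave out the spread between cells.

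Output genes of the MAPK pathway, 10 genes such as DUSP6, SPRY2 and CCND1 that ERK signalling is known to turn on, were summed in each HRAS bin, and the sum was higher in induced cells in each. It was 1248 CPM (1213 to 1285) in the 70 induced cells with 0 to 3 HRAS counts and 1564 CPM (1540 to 1589) in the 187 with 10 or more. In control cells the same bins gave 804 CPM (786 to 821) and 725 CPM (700.3 to 751). For 4 to 6 and 7 to 9 HRAS counts the sum was 1454 and 1495 CPM in induced and 843 and 819 CPM in control cells. From the lowest to the highest bin it rose at each step in induced cells, and did not in control cells. Without CCND1, the most abundant gene of the list, the induced bins stood at 524, 583, 639 and 667 CPM in that order. The control bins stood at 345, 369, 361 and 351 CPM. With all cells unthinned and parted by the control quartiles of HRAS CPM, the sum showed no steady rise in induced cells past the lowest part. It was 1124, 1490, 1424 and 1426 CPM there from the lowest to the highest part, and 856, 838, 809 and 765 CPM in control cells. Without CCND1 the induced parts rose at each step, at 478, 592, 598 and 619 CPM. The control parts without CCND1 stood at 364, 345, 377 and 367 CPM. Induced cells with few HRAS counts were thus above control cells of any HRAS bin in the sum of MAPK output genes. These bins were not matched for cluster either. Of the 8 genes of the list above the floor, 5 passed 1.5-fold upward and 0 downward, with a median log2 ratio of 0.80, beside the 10.3% and 7.73% of all measured genes that passed in each direction. ETV5, SPRY4 and ETV4 did not pass.

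By phase of the cell cycle, called from published S and G2/M genes at equal depth, HRAS differed most in cells called G1. HRAS stood at 171 CPM in 331 induced and 79.3 CPM in 127 control G1 cells, a ratio of 2.16 (1.97 to 2.37). In S the ratio was 1.35 (1.21 to 1.51, 141 against 104 CPM, 60 and 215 cells), and in G2/M it was 1.35 (1.26 to 1.44, 156 against 116 CPM, 171 and 424 cells). HRAS was lowest in G1 among control cells and highest in G1 among induced cells. RRAS had ratios of 1.71 (1.37 to 2.16) in G1 and 1.75 (1.21 to 2.51) in S, while in G2/M it stood at 11.9 against 10.4 CPM, a ratio of 1.15 whose interval, 0.906 to 1.45, holds 1. NRAS varied less, with ratios of 1.17 (1.03 to 1.33) in G1, 1.19 (0.981 to 1.43) in S and 1.28 (1.15 to 1.41) in G2/M.

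The phase calls placed 58.9% of induced cells in G1, 10.7% in S and 30.4% in G2/M, against 16.6%, 28.1% and 55.4% of control cells. Without thinning these were 56.0%, 9.31% and 34.7% against 19.2%, 25.1% and 55.6%. The G1 cells of the 2 libraries came from different clusters: 214 of the 331 induced ones lay in the cluster led by SNCG described next, and 88 of the 127 control ones in the cluster led by KLHL24. The difference by phase thus moves with cluster, and the part of each was not tested.

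Clustering of all cells with the 5 members left out gave 9 clusters, of which 3 held at least 20 cells of both libraries. These were led by KLHL24, by the mitotic gene ASPM and by the S phase histone gene HIST1H1B, and held 165 induced and 795 control cells. Clusters rest on other genes of the same cells and are given as a description. In the 3 joined, HRAS stood at 111 CPM in induced and 104 CPM in control cells, a ratio of 1.06 (1.01 to 1.12), and NRAS at 47.3 against 44.4 CPM (1.07, 0.982 to 1.16). RRAS stood lower in those induced cells, at 6.41 CPM (5.20 to 7.82, 97 counts) against 9.61 CPM (8.92 to 10.3, 715 counts) in control cells, a ratio of 0.667 (0.534 to 0.825). In the single clusters the HRAS ratio was 1.27 (1.17 to 1.37) in the one led by KLHL24, 1.02 (0.919 to 1.12) in the one led by ASPM and 0.845 (0.756 to 0.942) in the one led by HIST1H1B. RRAS had ratios of 0.703 (0.511 to 0.949), 0.453 (0.272 to 0.715) and 0.870 (0.552 to 1.32) in the same order.

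MAPK output genes were nevertheless higher in the induced cells of those 3 clusters, at 1205 CPM against 808 CPM in their control cells, a ratio of 1.49 (1.47 to 1.52), and 1.34 (1.30 to 1.37) without CCND1. At a finer setting of 15 clusters, 3 again held both libraries, with 108 induced and 506 control cells. There the ratio was 0.956 (0.891 to 1.02) for HRAS, 0.758 (0.577 to 0.981) for RRAS and 1.52 (1.49 to 1.55) for MAPK output. The other 501 induced cells, at 172 CPM of HRAS and 25.4 CPM of RRAS, stood above both the 165 induced cells and the control library. The 161 control cells outside the 3 shared clusters, at 128 CPM of HRAS and 14.7 CPM of RRAS, also stood above the 795 control cells inside them. Outside those clusters the ratio was 1.35 (1.29 to 1.41) for HRAS and 1.73 (1.53 to 1.96) for RRAS. In the shared clusters HRAS was higher in the one led by KLHL24 and lower in the one led by HIST1H1B. The finer setting and the choice of shared clusters were made after seeing the data.

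**Figure D3:**
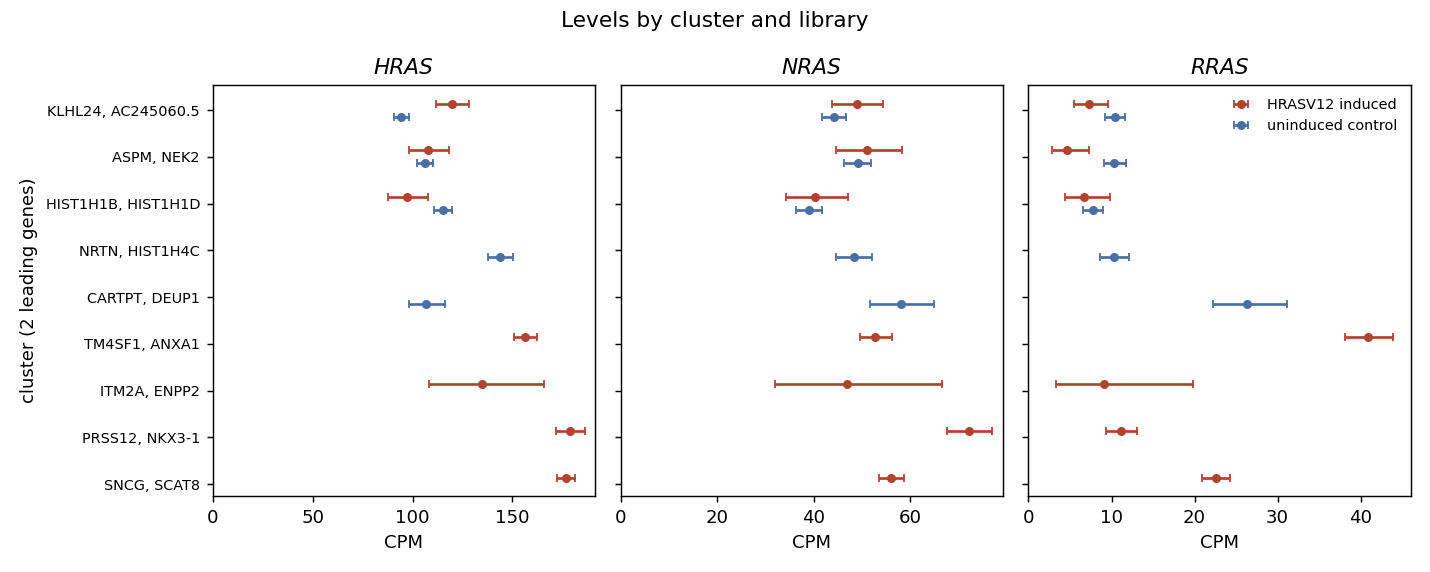
CPM of HRAS, NRAS and RRAS (x axis) in each cluster, named by its 2 leading genes, for induced (red, upper) and control (blue, lower) cells, with exact 95% Poisson intervals, where the group had at least 20 cells. In the 3 upper clusters, which hold both libraries, RRAS is no higher in induced than in control cells, and the highest RRAS value is that of induced cells of the cluster led by TM4SF1.

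RRAS and RRAS2 were concentrated in 1 cluster of induced cells, led by TM4SF1 and ANXA1, a membrane protein and an annexin. Its 126 induced cells were 18.9% of the induced library and held 43.6% of the RRAS and 69.0% of the RRAS2 counts of the library, beside 23.3% of all its counts. RRAS stood at 40.9 CPM (38.1 to 43.9) there, at 22.5 CPM (20.9 to 24.3) in the 253 induced cells of the cluster led by SNCG, and at 11.1 CPM (9.38 to 13.0) in the 91 of the cluster led by PRSS12. RRAS2 stood at 5.73 CPM (4.69 to 6.92) in the TM4SF1 cluster and at no more than 1.17 CPM in any other group of at least 20 induced cells. At equal depth RRAS2 was found in 24.2% of 99 induced cells of that cluster (16.2 to 33.9), and in 4.58% of 240 cells of the SNCG cluster (2.31 to 8.05). HRAS, at 156 CPM, was not highest there. It stood at 177 CPM in the SNCG cluster and at 179 CPM in the PRSS12 cluster, where NRAS was also at its highest, 72.2 CPM. The highest NRAS level of a control group of at least 20 cells was 58.1 CPM.

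Without the TM4SF1 cluster RRAS stood at 16.1 CPM in induced and 10.7 CPM in control cells (interval of the ratio 1.37 to 1.64). The ratio of CPM was at 1.5 itself, and with the pseudocount of 1 CPM the log2 ratio of 0.54 was just under the 0.58 that 1.5-fold needs. There RRAS2 had 48 counts in induced and 92 in control cells, a ratio of 0.795 (0.549 to 1.14). The HRAS ratio was 1.47 without it as with it. Beside RRAS, summed markers of several other cell types were higher in those 126 cells. All 8 endothelial markers were above their level in the other induced cells, in sum 181 against 41.8 CPM, with EGFL7 at 107 CPM, ESAM at 40.2 CPM and CDH5 at 10.9 CPM. EGFL7 was at 96.4 CPM in the control library as a whole, and VWF and CLDN5 rested on 20 and 8 counts in these cells. All 5 fibroblast markers were higher too, in sum 189 against 40.2 CPM, 157 CPM of it from LUM. The epithelial list summed to 101 against 30.2 CPM with 3 of 5 genes higher, KRT18 giving 69.4 CPM, while CDH1 (2.03 against 3.06 CPM) and KRT19 (13.9 against 17.9 CPM) stood lower. The adrenergic list summed to 2951 against 5726 CPM. The cells had a median of 8.49% mitochondrial counts, where the median of the induced library was 11.1%. The part of these in the RRAS level was not tested.

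In the control library RRAS was highest in 59 cells of the cluster led by the neuropeptide gene CARTPT, at 26.4 CPM (22.2 to 31.1), against at most 10.4 CPM in the other groups of at least 20 control cells. At equal depth it was found in 65.9% of 44 of these cells (50.1 to 79.5). HRAS stood at 107 CPM in them and NRAS at 58.1 CPM. Over all 64 cells of that cluster, 5 of them induced, the endothelial markers summed to 496 CPM, the highest of the 9 clusters, and the fibroblast markers to 124 CPM. These sums were not split by gene. Over the whole control library EGFL7 alone gave 96.4 of the 105 CPM of the endothelial list, so its sum need not speak for the other markers. The 59 control cells had a median of 15.9% mitochondrial counts, where that of the control library was 13.2%. The part of these in the RRAS level was not tested. Each library thus held a group of cells with RRAS above the rest of that library.

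**Figure D4:**
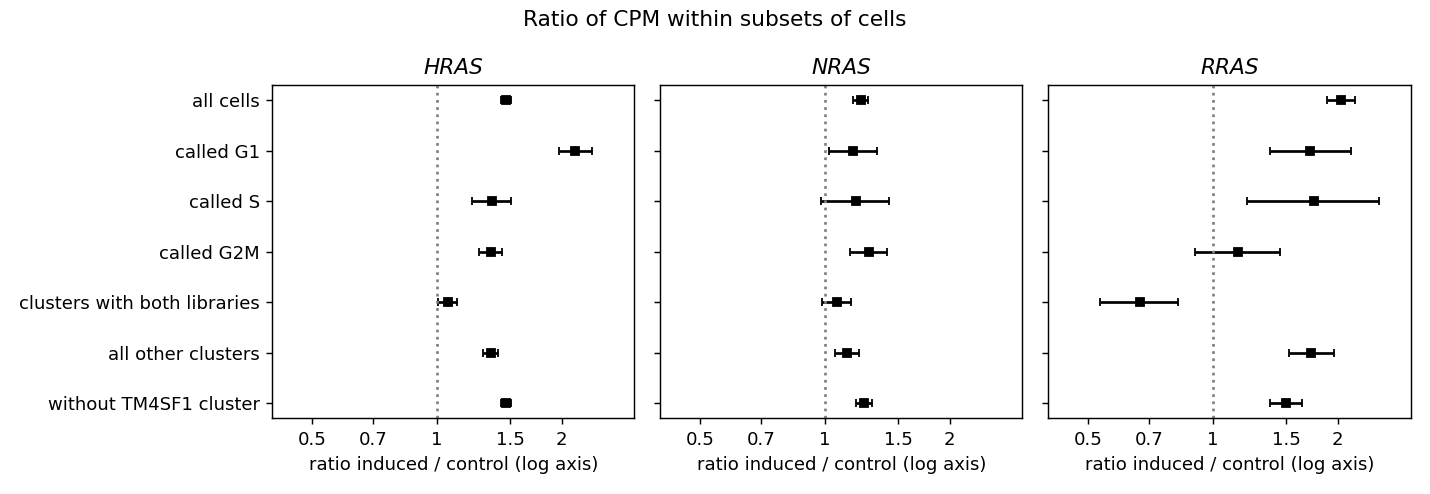
Ratio of CPM, induced over control (x axis, log scale), for HRAS, NRAS and RRAS in all cells, in cells called G1, S or G2M, in clusters that hold both libraries, in all other clusters and without the cluster led by TM4SF1, with exact 95% conditional intervals. HRAS is farthest above 1 in G1 cells at 2.16 and nearest 1 in the shared clusters at 1.06, where RRAS is below 1 at 0.667.

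The genes most like the members in pattern were found over the 12 groups of at least 20 cells of 1 cluster and 1 library, by Pearson correlation of log2(CPM + 1). For HRAS these were UBL4A (r = 0.90), KCMF1 (r = 0.89), a ubiquitin ligase, and FAM120AOS (r = 0.89). For NRAS they were TRIB2, a pseudokinase (r = 0.90), ITGA6, an integrin subunit (r = 0.90), and PACS1, a sorting protein (r = 0.85). These 3 were also among the leading genes of the PRSS12 cluster, where NRAS was at its highest, 72.2 CPM. The part of that 1 group in their correlations was not tested. After centring within each library NRAS had the same 3 genes, with TRIB2 at 0.93, and HRAS had LSM10, RP9 and THAP4. HRAS and NRAS themselves correlated at 0.64 over these groups and HRAS and RRAS at 0.46. The groups share libraries and are not independent, and the genes named are the highest of all those compared. RRAS, RRAS2 and MRAS were under the 25 CPM set for this comparison.

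Of 85 regulators and effectors of RAS, 55 were above the floor. Of these, 8 passed 1.5-fold upward and 2 downward in induced cells, with a median log2 ratio of 0.00. Over all measured genes the shares past 1.5-fold were 10.3% and 7.73%, and none of the lists that follow was tested against these shares. RASSF1 had the highest log2 ratio of all 55.

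Upstream adaptors, which link receptors to RAS, held 5 of the 8 higher genes among 11 measured, with a median log2 ratio of 0.49. IRS2, a docking protein of the insulin receptor, stood at 34.2 CPM in induced and 17.2 CPM in control cells (log2 ratio 0.95), and SHC2 at 13.3 against 6.40 CPM (0.95). At the low end were PTPN11, the phosphatase SHP2, at 47.8 against 61.7 CPM, and CRKL at 21.9 against 27.0 CPM, neither past 1.5-fold. The 2 measured exchange factors, SOS1 at 24.4 against 26.5 CPM and SOS2 at 14.4 against 13.9 CPM, were near level.

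Of 8 measured GTPase-activating proteins and their partners, 1 passed 1.5-fold upward and 0 downward. SPRED3, of a family that brings NF1 to RAS, stood at 11.8 CPM in induced and 6.33 CPM in control cells (log2 ratio 0.80), and SPRED1 at 19.5 against 14.6 CPM (0.39). NF1 stood at 11.2 against 13.9 CPM (-0.29) and DAB2IP at 13.5 against 16.2 CPM (-0.24), neither past 1.5-fold.

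Direct effectors had 1 of 11 higher and 1 lower. RASSF1, a scaffold linked to Hippo signalling, stood at 22.9 CPM in induced and 10.1 CPM in control cells (log2 ratio 1.11), and RGL2, a RAL exchange factor, at 23.2 against 17.9 CPM. TIAM1, an exchange factor of RAC, stood at 9.73 against 15.5 CPM (-0.62), and PIK3CB at 9.67 against 12.3 CPM. Along the RAF, MEK and ERK cascade 0 of 13 were higher and 1 was lower: CNKSR2, a scaffold found mainly in neurons, stood at 23.4 against 45.7 CPM (-0.94). PPP1CC, a catalytic subunit of PP1, stood at 153 against 169 CPM. By log2 ratio LAMTOR2 (183 against 141 CPM) and YWHAZ (602 against 499 CPM) were the highest of this list, neither past 1.5-fold.

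Enzymes that attach lipids to RAS and move it had 1 of 10 higher and 0 lower. ZDHHC9, which with GOLGA7 palmitoylates HRAS and NRAS, stood at 15.9 CPM in induced and 9.69 CPM in control cells (log2 ratio 0.66). ABHD17B, which removes palmitate, stood at 10.2 against 12.9 CPM, and ICMT, which methylates the carboxyl end, at 32.3 against 37.0 CPM. ABHD17A had the next highest log2 ratio after ZDHHC9, at 48.6 against 42.2 CPM.

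In the wider RAS subfamily, 2 of 13 measured genes passed 1.5-fold upward and 0 downward, with a median log2 ratio of 0.32. Over all measured genes 10.3% and 7.73% passed, and the list was not tested against these shares. RALA, which acts downstream of RAS through RALGDS, stood at 225 CPM in induced and 125 CPM in control cells (log2 ratio 0.84), and RIT1 at 31.3 against 20.3 CPM (0.60). RERG, a growth inhibitor of the family, stood at 43.9 against 66.2 CPM (-0.58), just inside the limit, and RASL10B at 25.1 against 28.9 CPM. Among MAPK output genes above the floor, DUSP6 had the highest log2 ratio (20.6 against 4.42 CPM), followed by PHLDA1 (97.1 against 52.0 CPM), while ETV5 (58.7 against 58.1 CPM) and SPRY4 (34.8 against 27.9 CPM) were lowest.

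**Figure D5:**
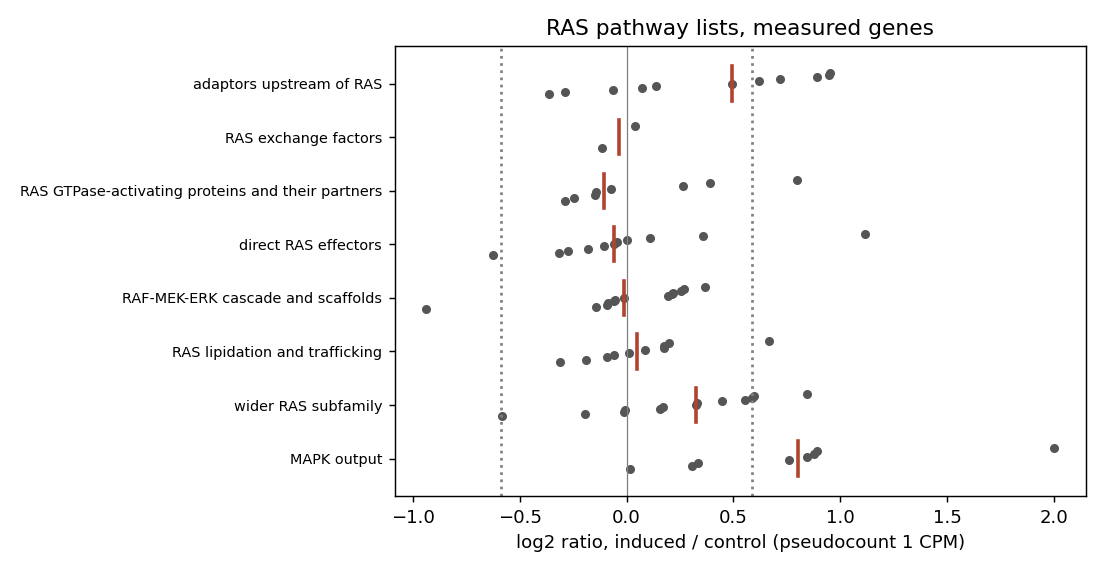
Log2 ratio of induced over control (x axis, pseudocount 1 CPM) of each measured gene of 8 lists around RAS (rows), with the list median as a red bar and dotted lines at 1.5-fold either way. The adaptors (median 0.49), the wider subfamily (0.32) and MAPK output (0.80) lie to the right of 0, and the other medians lie near 0.

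The libraries held 80359736 induced and 95350640 control counts, with medians of 111582 and 85821 per cell. No cell barcode was shared between them. Of 14 adrenergic neuroblastoma markers 12 were above the floor. TH, an enzyme that makes catecholamines, stood below that floor, at 1.14 CPM in induced and 3.62 CPM in control cells. Immune and erythroid markers summed to no more than 1.72 CPM in either library. The induced library had a 5th percentile of 1.44% mitochondrial counts per cell, against 8.52% in the control library. When cells under the 5th percentile that control cells had for mitochondrial percent and for MALAT1 were dropped from both libraries, which kept 406 induced and 871 control cells, the log2 ratio was 0.47 for HRAS, 0.36 for NRAS and 0.58 for RRAS, the last no longer past 1.5-fold.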

How the data were processed

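The deposited table holds whole-number counts per gene and cell. The authors made them with kallisto and bustools, per the submitters' processing notes. Their versions, genome build, annotation and cell filters were not named in these sources. The deposited cell annotation gives the authors' percent of mitochondrial counts per cell, used for 1 limit on cells, and a size factor (a ratio), not used here. It carries no barcodes, so cells were matched by order, checked by barcode suffix and by totals, which differed by at most 192 counts. Every deposited cell is marked singlet by the authors and no doublet caller was run.

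Counts were summed by library and scaled to CPM. The induced library held 80359736 counts in 666 cells and the control library 95350640 in 956, so 3 counts are 0.0373 and 0.0315 CPM. Ratios carry exact conditional 95% intervals and shares exact Clopper-Pearson ones. Log2 ratios used a pseudocount of 1 CPM. A gene was measured at 10 CPM or more in either library and called past 1.5-fold. Per-cell values used cells thinned to 53000 counts, leaving out 104 induced and 190 control cells. Cell cycle phases were called from 43 S and 54 G2/M genes. Clusters came from 2000 variable genes without the members, 30 principal components, 15 neighbours and Leiden resolution 0.5 (scanpy 1.11.5, igraph 0.11.9, numpy 2.4.6, scipy 1.17.1, Python 3.11.15). Scaling alternatives used edgeR 4.0.16 and DESeq2 1.42.0 factors in R 4.3.3, with no test. The steps were tested on simulated data.

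Named genes were the 5 members, the 2 highest and 2 lowest measured genes of each list, and the 3 genes most like HRAS and NRAS. Other genes named (cluster leaders and markers of other cell types) were chosen after their values were seen. The members and lists were chosen with earlier results of these data known. Not every RAS gene is reported here.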

Additional observations from a re-analysis of the deposited data

How the results depend on the processing

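No paired analysis was possible because each group is 1 library. The log2 ratio of HRAS, 0.55 in all cells, was 0.66 with TMM scaling, 0.71 with DESeq2 size factors, 0.46 with library totals taken free of ribosomal protein and mitochondrial genes, 0.59 without the 5% of cells with the most counts, 0.61 in thinned cells and 0.47 under the limit on mitochondrial percent and MALAT1. It was 1.10 in G1, 0.43 in S and 0.43 in G2/M cells, and 0.40 in thinned cells up to the highest control HRAS count, which by construction drops induced cells alone and can only lower this ratio. In clusters holding both libraries it was 0.086, and -0.064 at resolution 1. NRAS stayed above 0 in all 18 settings (0.02 to 0.44). RRAS was -0.52 in clusters holding both libraries and -0.36 at resolution 1, and above 0 in the other 16. RRAS2 was -0.91 in S, -0.14 in G2/M, -0.63 in clusters holding both libraries, -0.58 at resolution 1 and -0.15 without the TM4SF1 cluster. MRAS was 0.17 in thinned cells, 0.49 in S, 0.21 in G2/M and 0.20 in thinned cells up to the highest control HRAS count.

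Of the members, 1 of 3 passed 1.5-fold upward in all cells. The count was 2 of 3 with TMM scaling (1306 of 9133 genes in all) and DESeq2 size factors (1505 of 9200). It was also 2 of 3 without the 5% of cells with the most counts (929 of 9056), thinned (939 of 9070) and in G1 (1154 of 9013). It was 0 of 3 in G2/M (492 of 8892) and under the limit on MALAT1 and mitochondrial percent (837 of 9107). Without the TM4SF1 cluster it was 0 of 3 as well (804 of 8939). With a filter of 50 CPM and in clusters holding both libraries, at either resolution, RRAS was not measured, and 0 of 2 members passed. Of regulators and effectors 8 of 55 were higher, beside 930 of 9017 genes in all. That became 4 of 53 in S (557 of 8990 in all), 4 of 52 in G2/M (492 of 8892) and 4 of 55 with a pseudocount of 5 CPM (749 of 9017). It was 1 of 16 with a filter of 50 CPM (375 of 3285), and 1 of 51 in clusters holding both libraries (256 of 8957), also at resolution 1 (344 of 9027). The lower ones, 2 of 55 in all cells, stood beside 697 of 9017 genes in all. They became 1 with TMM scaling (461 of 9133 in all), DESeq2 size factors (376 of 9200) and in thinned cells (616 of 9070). The same held in G1 (589 of 9013), in G2/M (191 of 8892) and under the limit (393 of 9107). It held without the CARTPT cluster, highest in summed endothelial markers (753 of 9034), and with a pseudocount of 5 CPM (465 of 9017). It also held in thinned cells up to the highest control HRAS count (622 of 9052) and without the TM4SF1 cluster (523 of 8939). They were 0 in S (214 of 8990) and with a filter of 50 CPM (214 of 3285). In clusters holding both libraries they were 0 too (100 of 8957, and 168 of 9027 at resolution 1). The causes were not tested. The 4 alternatives on clusters holding both libraries (at both resolutions), the TM4SF1 cluster and the highest control HRAS count were chosen after seeing the data. With 1 library per group, differences between cultures cannot be told apart from the treatment, and RRAS2 and MRAS rest on few counts.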
